A study of Mus musculus with 9 samples.

Results

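The 9 genes described here make and load the major histocompatibility complex (MHC) class II molecule: H2-Aa, H2-Ab1, H2-Eb1, Cd74, Ctss, H2-DMa, H2-DMb1, H2-DMb2 and Ciita. They were chosen by symbol from the 27179 genes of the deposited table, and all 9 were found once. Averaged over the libraries, each reached the minimum of 10 normalized counts, so all 9 were among the 12993 genes tested. The liver m-lobe of 9 wild-type C57BL/6J mice was sequenced in bulk as poly(A) RNA. At 17 months of age each mouse received AAV8 by retro-orbital injection, at one dose for all, and the liver was taken 3 weeks later. In 5 mice the vector carried a guide RNA against Ccnd1 (sgCcnd1), the gene of cyclin D1, and in 4 control mice a guide RNA against the Rosa26 locus (sgRosa26). Controls thus also carried saCas9, a small Cas9 nuclease, and a cutting guide. Expression of the nuclease came from TBG, a hepatocyte promoter, while the RNA came from whole pieces of the lobe. The question named in the series title is whether inflammatory signalling differs after hepatocyte loss of Ccnd1. Control libraries carry the letters A to D and sgCcnd1 libraries the letters E to I, in column order; the letters are not replicate numbers.

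MHC class II molecules show peptides from engulfed material to CD4+ T cells. An alpha and a beta chain are assembled in the endoplasmic reticulum around the invariant chain (Cd74), which fills the peptide groove. In endosomes the invariant chain is cut by cathepsins, among them cathepsin S (Ctss), and H2-DM then exchanges the remaining fragment for a peptide. Transcription of the class II chains, Cd74 and H2-DM depends on Ciita, a coactivator that docks on factors bound to the X and Y boxes of their promoters. In liver the pathway is known from dendritic cells, B cells, Kupffer cells (the resident macrophages) and sinusoidal endothelium, and interferon gamma induces it through Ciita.

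The promoters are shown because Ciita acts through the X and Y boxes and most of these genes varied together across libraries. Sequences are from RefSeq (GRCm38.p6), which held windows for 6 of the 9 genes, each from 250 bases before to 50 after an annotated start site; Cd74, H2-Ab1 and Ciita were without an entry. H2-DMa had 2 windows. Both strands were searched for the core of the X1 box (AACNGATG), the Y box (ATTGG), the interferon gamma activated site GAS (TTCNNNGAA) and the interferon-stimulated response element, ISRE. In the stretches below, 5′ to 3′ on the strand of the gene, capitals mark X1 core and Y box matches, and in Ctss the ISRE match. They are chr17:34305727-34305876 (plus strand) for H2-Eb1, chr17:34153051-34153200 (plus) for H2-DMb1, chr17:34145109-34145258 (plus) for H2-DMb2, chr17:34287814-34287963 (minus) for H2-Aa and chr3:95526726-95526795 (plus) for Ctss.
H2-Eb1: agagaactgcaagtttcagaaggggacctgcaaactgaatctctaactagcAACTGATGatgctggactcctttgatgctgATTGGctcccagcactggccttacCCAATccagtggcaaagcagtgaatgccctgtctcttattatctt
H2-DMb1: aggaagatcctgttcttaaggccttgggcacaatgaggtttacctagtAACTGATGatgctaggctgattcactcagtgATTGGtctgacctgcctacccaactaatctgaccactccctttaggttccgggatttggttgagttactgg
H2-DMb2: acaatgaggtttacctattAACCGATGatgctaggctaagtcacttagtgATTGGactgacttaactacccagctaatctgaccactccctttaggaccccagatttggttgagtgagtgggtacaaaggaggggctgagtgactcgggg
H2-Aa: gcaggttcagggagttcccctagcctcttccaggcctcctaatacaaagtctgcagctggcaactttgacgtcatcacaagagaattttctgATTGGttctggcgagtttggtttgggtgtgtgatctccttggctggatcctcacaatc
Ctss: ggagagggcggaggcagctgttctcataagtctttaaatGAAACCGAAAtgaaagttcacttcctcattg

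In H2-Eb1, H2-DMb1 and H2-DMb2 an X1 core was followed on the same strand by a Y box, with starts 30 bases apart in H2-Eb1 and 31 in both H2-DMb genes. The X1 core began 89, 92 and 121 bases upstream of the start site, in that order. H2-Eb1 held a further Y box match on the opposite strand, 35 bases upstream. H2-Aa held a Y box 48 bases upstream, and the second H2-DMa window held one 198 bases upstream. Only the exact letters were searched, so a window without an X1 core match may still hold a variant of the box. Ctss held an ISRE 21 bases and an X1 core 207 bases upstream. The GAS letters were found in H2-DMb2 alone among these windows, 218 bases upstream. Of 32851 promoter windows of all genes, 2.32% held the X1 core, 37.4% the Y box, 8.30% the GAS and 3.44% the ISRE. An X1 core and a Y box with starts 29 to 32 bases apart, a spacing set after these windows had been seen, were found in 5 windows (0.0152%). These belonged to H2-Eb1, H2-DMb1, H2-DMb2, H2-Eb2 and BC051142, all on chromosome 17. A match of letters is a description and was not tested as a binding site.

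**Figure D1:**
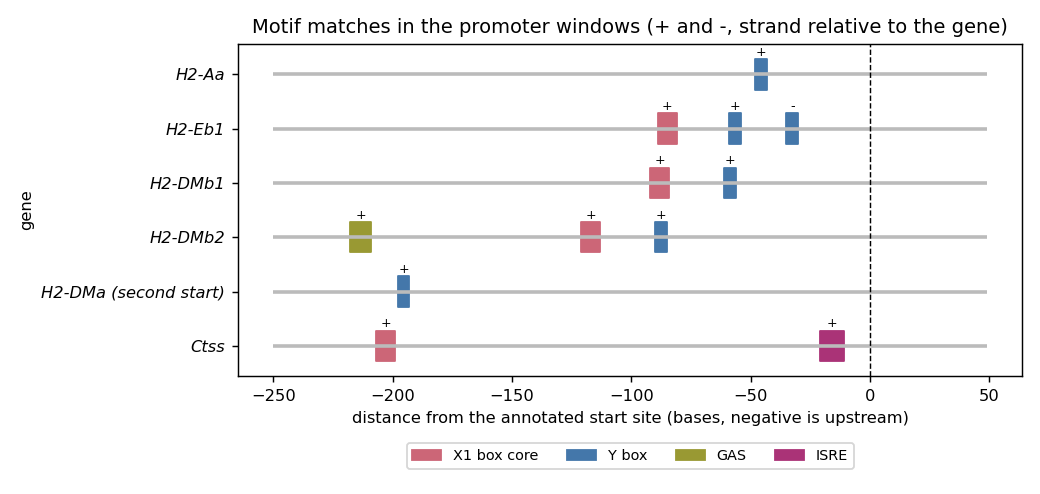
Motif matches along the promoter windows of the members with an entry; the x axis is the distance from the annotated start site in bases and each row is 1 gene. X1 core and Y box starts are 30 bases apart in H2-Eb1 and 31 bases in H2-DMb1 and H2-DMb2, and the first H2-DMa window, without a match, is not drawn.

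In GENCODE vM21 (GRCm38) 6 of the genes lie within the class II region of chromosome 17. H2-DMa spans 34119541 to 34139101, H2-DMb2 34143307 to 34151555, H2-DMb1 34153072 to 34160230, H2-Ab1 34257689 to 34269419, H2-Aa 34282744 to 34287823 and H2-Eb1 34305867 to 34316674. Only H2-Aa of these 6 is on the minus strand. Ctss spans 95526786 to 95556403 on chromosome 3, Ciita spans 10480059 to 10528418 on chromosome 16, and Cd74 is on chromosome 18. H2-DMb1 and H2-DMb2 are near-copies: 27.2% of the 50-base stretches of the main H2-DMb1 transcript also occur in H2-DMb2, so their values are uncertain where reads were split or dropped. Exons of H2-DMa overlap those of Brd2 on the opposite strand over 360 bases, 10.4% of its exon bases, and those of Ciita overlap Dexi over 329 bases, 3.45%. The strand setting of the counting is not given in the sources used here. Brd2 was at 1595 ± 89.0 normalized counts in sgRosa26 (SD, n = 4) and 1647 ± 142 in sgCcnd1 (SD, n = 5), and Dexi at 279 ± 37.5 and 249 ± 32.5.

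Libraries held 10840595 to 20176201 gene-assigned reads, of which 1756 to 7943 fell on the 9 class II genes. Ccnd1 was at 362 ± 40.6 normalized counts in sgCcnd1 (SD, n = 5) against 744 ± 109.8 in sgRosa26 (SD, n = 4), with every sgCcnd1 library below every control (limma adjusted p = 0.0116). Library H of sgCcnd1 stood apart: the Y-linked Ddx3y was at 2.00 normalized counts there and at 809.9 to 1154 in the other 8, and Xist was at most 3.92 in all 9. Library H also had the lowest value of 8 of the 9 class II genes, so the fold changes of the 9 genes are also given without it, and some list counts and medians too. Library E had the highest sgCcnd1 value for all 9, and control B the highest value of all libraries for 8.

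Class II levels were lower in most sgCcnd1 livers than in controls, at 45.2% to 57.6% of the control mean for 7 of the 9 genes, 72.0% for Ctss and 77.2% for H2-DMb2. For none of them did the difference pass the main test, limma adjusted over all genes, while DESeq2 called 4 lower. Values are the deposited normalized counts, and fold changes are differences of log2(normalized count + 1), which understate the change of low genes. All 9 had a log2 fold change below 0, which 47.1% of all genes tested had. Their median was -0.90, against 0.01 over all genes tested. With limma, adjusted by the Benjamini-Hochberg method over 12993 genes, 0 of 9 were called lower; the share of all genes called lower was 0.0077%. At an unadjusted limma p under 0.05, 8 of 9 were lower, against 5.74% of all genes. In 4 of 9 every sgCcnd1 library lay below every control, against 1.97% of all genes, and in 0 of 9 every one lay above, against 1.92%. At least 4 of the 5 lay below every control in 8 of 9, against 6.56%. The 9 genes were chosen with earlier results of these data known, and most varied together across libraries. The counts beside the shares of all genes are therefore a description. DESeq2 on the recovered reads gave an adjusted p for 8 of the 9 (not for H2-DMb2). It called 4 lower (Cd74, H2-DMa, Ciita and H2-Aa), against 0.585% of all genes. With edgeR 0 were called and 8 had an unadjusted p under 0.05, for which the share of all genes was not counted. Without library H, limma again had 0 called and 8 at an unadjusted p under 0.05, against 4.28% of all genes. DESeq2 then called 2, Cd74 and H2-Aa, against 0.192%. In bulk tissue, fewer cells that carry class II and less class II RNA per cell cannot be told apart.

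**Figure D2:**
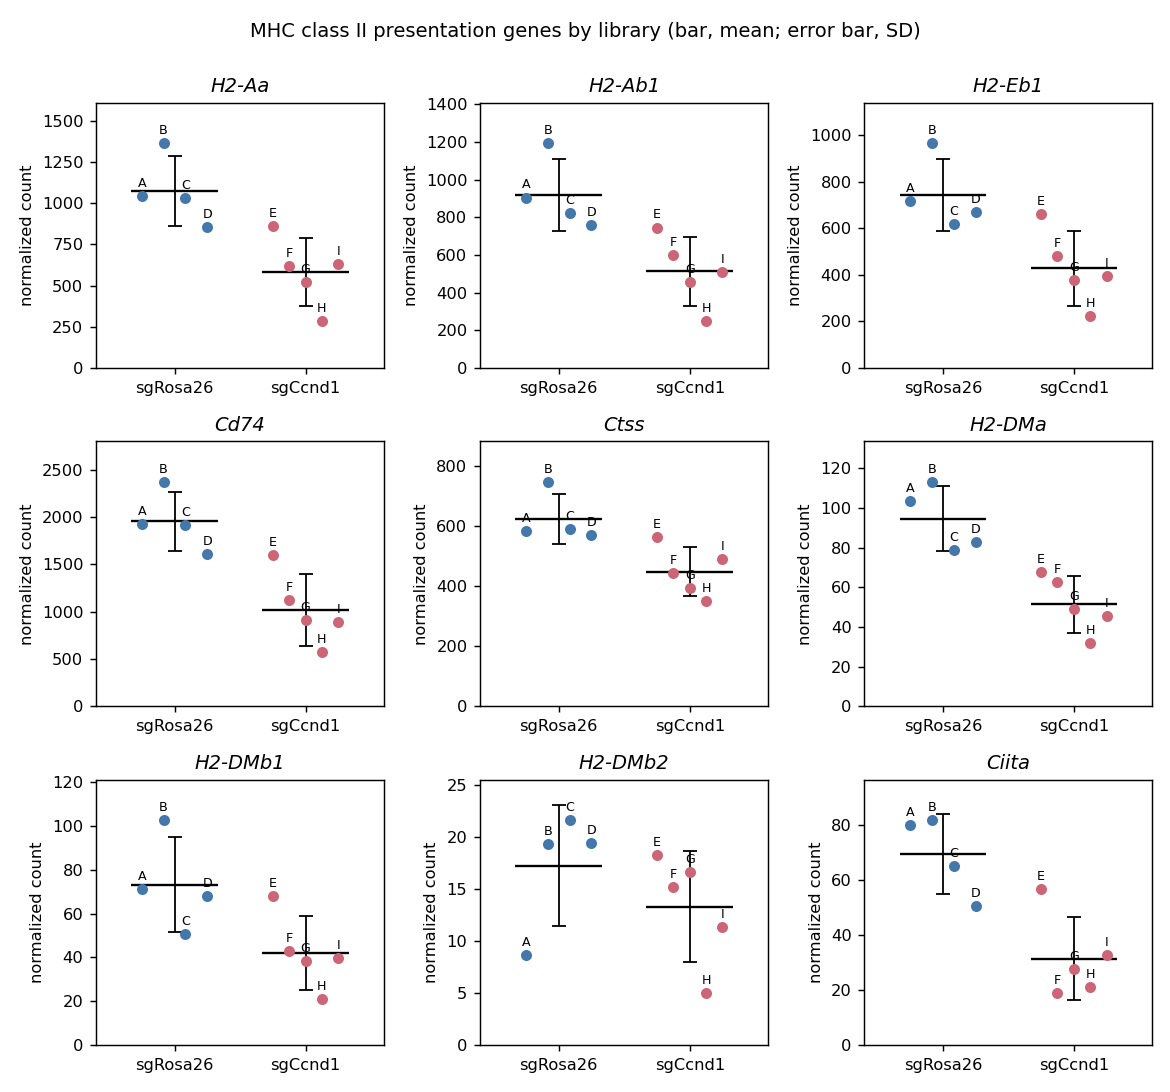
Normalized counts of the 9 genes in each library (points, with library letters), with the mean (bar) and SD (error bar) of sgRosa26 (n = 4) and sgCcnd1 (n = 5). The groups do not overlap in H2-Ab1, Cd74, Ctss and H2-DMa, where library E lies nearest to the controls.

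The classical chains form the peptide-binding molecule itself. H2-Aa, the alpha chain of the A molecule, was at 1046, 1365, 1029.6 and 858 normalized counts in A to D and at 861, 619, 521, 283 and 630.1 in E to I. E lay just above the lowest control, D, and the other 4 sgCcnd1 libraries lay below all controls. The means were 1075 ± 211 (SD, n = 4) and 583 ± 209 (SD, n = 5), a log2 fold change of -0.95 (95% interval -1.498 to -0.40; limma adjusted p = 0.255; exact two-sided permutation p = 0.0238). Without H it was -0.71. The smallest p this permutation test can give is 0.00794.

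H2-Ab1, the beta chain that pairs with H2-Aa, was at 905, 1193, 821 and 757 normalized counts in A to D and at 746, 602, 458, 247 and 511 in E to I. The groups did not overlap, although E and D differed by little. Its means were 919 ± 193 (SD, n = 4) and 513 ± 184 (SD, n = 5), a log2 fold change of -0.91 (95% interval -1.46 to -0.35; limma adjusted p = 0.271; exact permutation p = 0.0159), and -0.67 without H. H2-Eb1, the beta chain of the E molecule, was at 717, 966, 620.4 and 669 normalized counts in A to D and at 661, 481, 377, 225 and 396 in E to I. Only E reached into the range of the controls. Its log2 fold change was -0.86 (95% interval -1.39 to -0.33; limma adjusted p = 0.272; exact permutation p = 0.0238), and -0.65 without H.

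The alpha chain of the E molecule is not made in C57BL/6 mice, which carry the b haplotype, and H2-Ea had 0 reads in all 9 libraries. A count of 0 allows up to 3 reads per library at these depths, which covers counting error only. The chains kept close proportions across libraries. H2-Aa over H2-Ab1 was 1.17 ± 0.055 in sgRosa26 (SD, n = 4) and 1.14 ± 0.073 in sgCcnd1 (SD, n = 5), and H2-Eb1 over H2-Ab1 was 0.810 ± 0.054 and 0.839 ± 0.058. These differences are smaller than the spread between libraries.

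Cd74, the invariant chain, was the most abundant of the 9. It was at 1925, 2374, 1918 and 1615 normalized counts in A to D and at 1601, 1128, 911, 569.8 and 894 in E to I. Every sgCcnd1 library was below every control, with E and D almost level. The means were 1958 ± 313 (SD, n = 4) and 1021 ± 381 (SD, n = 5), and 1134 ± 329 without H (n = 4). The log2 fold change was -1.01 (95% interval -1.504 to -0.51; limma adjusted p = 0.245; DESeq2 adjusted p = 0.0137; exact permutation p = 0.0159). Without H it was -0.82 (limma adjusted p = 0.393; DESeq2 adjusted p = 0.0183). The sum of H2-Aa and H2-Ab1 over Cd74 was 1.01 ± 0.047 in controls (SD, n = 4) and 1.07 ± 0.129 in sgCcnd1 (SD, n = 5).

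Ctss, the protease that trims the invariant chain, showed a smaller difference. It was at 585, 749, 590.4 and 571 normalized counts in A to D and at 565, 445, 396, 352 and 489.6 in E to I. The groups did not overlap, and B stood above the other controls. The means were 624 ± 83.6 (SD, n = 4) and 449 ± 82.8 (SD, n = 5), a log2 fold change of -0.48 (95% interval -0.78 to -0.19; limma adjusted p = 0.271; exact permutation p = 0.0159), and -0.40 without H. The ratio of Ctss to Cd74 was 0.304, 0.315, 0.308 and 0.354 in A to D and 0.353, 0.394, 0.434, 0.618 and 0.548 in E to I. E lay within the control range and the other 4 sgCcnd1 ratios lay above it. The ratio was not tested.

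H2-DM, a dimer of H2-DMa with a beta chain from H2-DMb1 or H2-DMb2, resembles a class II molecule but acts as the catalyst of peptide exchange. H2-DMa was at 103, 113, 78.8 and 82.5 normalized counts in A to D and at 67.8, 62.7, 48.95, 31.99 and 45.4 in E to I. The groups did not overlap, and the gap between E and the lowest control was wider here than for the classical chains in relative terms. Its log2 fold change was -0.90 (95% interval -1.35 to -0.44; limma adjusted p = 0.247; DESeq2 adjusted p = 0.0249; exact permutation p = 0.0159). Without H the log2 fold change was -0.74 and the DESeq2 adjusted p 0.102.

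H2-DMb1 was at 71.3, 103, 50.7 and 68.0 normalized counts in A to D and at 67.8, 43.0, 38.2, 20.99 and 39.7 in E to I. E again lay among the controls, and the other 4 lay below them. The log2 fold change was -0.83 (95% interval -1.46 to -0.21; limma adjusted p = 0.336; exact permutation p = 0.0476). Without H it was -0.62, and without control B its unadjusted limma p was 0.051. H2-DMb2 was the exception among the 9. It had 5 to 24 reads per library, at 8.61, 19.3, 21.6 and 19.4 normalized counts in A to D and 18.3, 15.2, 16.6, 4.998 and 11.4 in E to I. The groups overlapped widely, with control A among the lowest. Its log2 fold change of -0.39 had a 95% interval from -1.21 to 0.44 (limma adjusted p = 0.733; exact permutation p = 0.437), and moved to -0.10 without H and to -0.67 without A.

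Ciita, the transactivator, had the lowest log2 fold change of the 9. It was at 79.9, 81.5, 64.8 and 50.5 normalized counts in A to D and at 56.4, 18.8, 27.4, 20.99 and 32.6 in E to I. Its lowest library was F, not H, and only E overlapped the controls. The means were 69.2 ± 14.6 (SD, n = 4) and 31.3 ± 15.1 (SD, n = 5), 45.2% of the control level. The log2 fold change was -1.21 (95% interval -1.83 to -0.59; limma adjusted p = 0.250; DESeq2 adjusted p = 0.0346; exact permutation p = 0.0238), lower than in all but 0.246% of genes tested. Without H it was -1.09, with a DESeq2 adjusted p of 0.151. Ciita over Cd74 was 0.0352 ± 0.0044 in controls (SD, n = 4) and 0.0311 ± 0.0085 in sgCcnd1 (SD, n = 5). These ratios overlapped, with the lowest, 0.0167, in F.

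**Figure D3:**
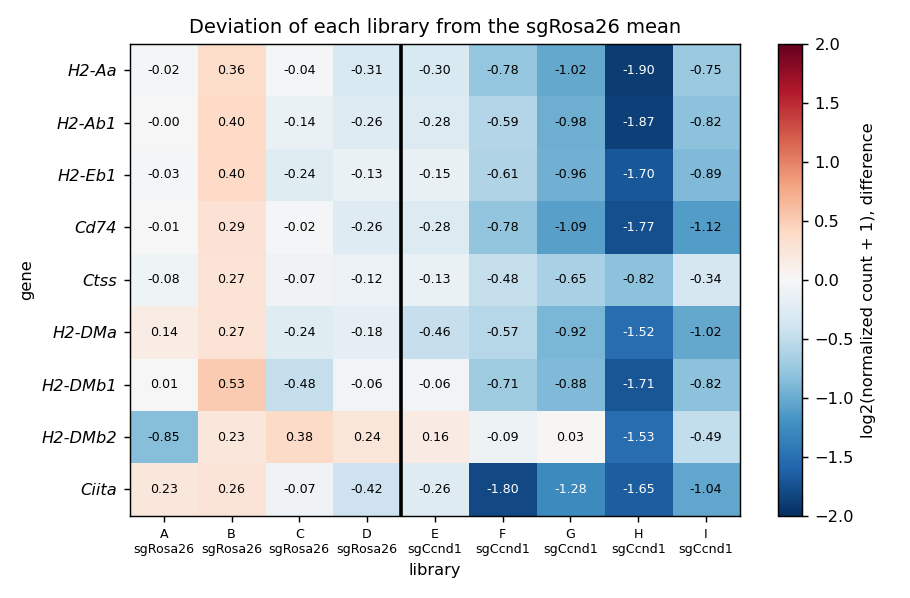
Difference of each library from the sgRosa26 mean on the log2(normalized count + 1) scale, with genes as rows and libraries as columns. The median over the 9 genes is closest to 0 in E (-0.26) and furthest from it in H (-1.70) among the sgCcnd1 libraries.

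The libraries were then compared over all 9 genes at once. The median difference of the 9 genes from the control mean was -0.01 in A, 0.29 in B, -0.07 in C and -0.18 in D, on the log2 scale. In E to I it was -0.26, -0.61, -0.96, -1.70 and -0.82. E thus lay close to D, and H lay furthest from the controls. Of the 9 genes, 4 were below every control in E, all 9 were in H, and 8 were in each of F, G and I. After the group mean was subtracted, each gene's levels over the 9 libraries had a Pearson correlation with the mean of the other 8 between 0.61 (H2-DMb2) and 0.98 (H2-Eb1). Ciita was at 0.63 and the remaining 6 genes at 0.90 to 0.97. These correlations share libraries and depth and are a description without a test.

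Per kilobase of the main transcript, the order of levels was the same in both groups. In controls it was Cd74 (1389 ± 222 normalized counts per kilobase, SD, n = 4), H2-Aa (953 ± 187), H2-Ab1 (758 ± 159), Ctss (460.4 ± 61.7), H2-Eb1 (445 ± 92.1), H2-DMa (57.0 ± 9.91), H2-DMb1 (52.1 ± 15.4), H2-DMb2 (12.1 ± 4.10) and Ciita (11.5 ± 2.42). Ctss and H2-Eb1, H2-DMa and H2-DMb1, and H2-DMb2 and Ciita did not differ beyond their spread. H2-Aa and H2-Ab1 differed by little more than 1 SD. In sgCcnd1 the scale ran from 724 ± 269.9 for Cd74 (SD, n = 5) to 5.20 ± 2.51 for Ciita.

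The rest of the pathway did not move as one. Of 39 further genes reported here, 32 were tested, and limma called 0 over all genes. At an unadjusted p under 0.05, 6 were lower and 4 higher, against 5.74% and 5.22% of all genes, and their median log2 fold change was -0.12. DESeq2 called 0 of the 31 to which it gave an adjusted p, and 0 of 24 without H.

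Genes of co-stimulation, the second signal to T cells beside class II, were listed together with inhibitory ligands such as that of Cd274. The list held 6 genes, of which 4 were tested. All 4 tested were lower at an unadjusted p under 0.05, against 5.74% of all genes. Without H 3 of them were, against 4.28%, and all 4 were again below 0, with a median of -0.67 against -0.74. Cd80, below the minimum level of the test and named after its values were seen, was at 4.001 normalized counts in sgCcnd1 and 3.968 in sgRosa26. Cd274, which encodes the inhibitory ligand PD-L1, was at 40.6 ± 12.5 normalized counts in sgCcnd1 (SD, n = 5) and 74.0 ± 23.2 in sgRosa26 (SD, n = 4). Cd86 was at 28.9 ± 7.08 against 43.9 ± 1.97. In both, every sgCcnd1 library lay below every control (log2 fold change -0.86 and -0.62; limma adjusted p = 0.271 and 0.310). Cd40 was at 6.64 ± 1.85 against 14.2 ± 4.77 (log2 fold change -0.97, limma adjusted p = 0.334). Of the T cell receptors of class II, Cd4 was at 20.8 ± 5.005 against 33.6 ± 10.6 normalized counts (limma adjusted p = 0.382). Lag3 was at 24.4 ± 5.51 against 28.4 ± 13.9 (limma adjusted p = 0.914).

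Among the genes reported here that carry the interferon gamma signal to Ciita, 6 were tested. With limma at an unadjusted p under 0.05, 0 were lower and 0 higher, against 5.74% and 5.22% of all genes. Irf8, a transcription factor of myeloid cells and B cells, was at 92.0 ± 25.8 normalized counts in sgCcnd1 (SD, n = 5) against 119 ± 26.8 in sgRosa26 (SD, n = 4), which is -0.39 on the log2 scale (limma adjusted p = 0.512). The receptor chains Ifngr2 and Ifngr1 had log2 fold changes of -0.20 and -0.14 (limma adjusted p = 0.543 and 0.565). The groups overlapped for all 3. Ifng itself was at 1.71 ± 0.871 normalized counts in sgRosa26 and 0.436 ± 0.641 in sgCcnd1, too low for the test.

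Of 7 factors that bind the X and Y boxes, 4 had a log2 fold change below 0, against 47.1% of all genes, with a median of -0.08. At an unadjusted p under 0.05, 0 were lower and 2 higher, against 5.74% and 5.22% of all genes. Without H 1 was higher and Rfxap was at 0.28. Creb1 was at 315 ± 14.7 normalized counts in sgCcnd1 (SD, n = 5) against 265 ± 26.9 in sgRosa26 (SD, n = 4), with no overlap between groups (log2 fold change 0.25, limma adjusted p = 0.354). Rfxap, a subunit of the RFX complex on the X box, was at 183 ± 20.8 against 149 ± 22.8 (0.30, 0.417), and its partner Rfx5 at 178 ± 33.2 against 202 ± 23.4 (-0.20, 0.633; -0.12 without H).

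Lysosomal processing genes were spread around 0, with a median log2 fold change of 0.03 over 9 genes. Ifi30, the thiol reductase that unfolds antigens, was at 182 ± 19.6 normalized counts in sgCcnd1 (SD, n = 5) against 242 ± 22.9 (SD, n = 4), without overlap (-0.41, limma adjusted p = 0.255). Sppl2a, the membrane protease that removes the last fragment of the invariant chain, lay the other way, at 3736 ± 263 against 3002 ± 349 (0.32, limma adjusted p = 0.282). Ctsh was at 4092 ± 372 against 3718 ± 128 (0.13, limma adjusted p = 0.577). Among genes of surface turnover, the ubiquitin ligase gene Marchf8 had a log2 fold change of 0.28, with an unadjusted p under 0.05 (0.26 without H, where it missed that threshold), its relative Marchf1, which acts on class II in B cells and dendritic cells, one of -0.22, and Cd83, which opposes it, one of -0.57 (limma adjusted p = 0.384, 0.763 and 0.521). H2-Ob, the beta chain of the H2-DM inhibitor H2-DO and mainly a B cell gene, was at 31.3 ± 12.4 against 34.03 ± 8.98 normalized counts (-0.18, limma adjusted p = 0.864; -0.11 without H). Its partner H2-Oa and H2-Eb2 were below the minimum level of the test.

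MHC class I genes, which serve CD8+ T cells and are on in nearly all cells, are set beside these as the nearest pathway. All 9 examined had a log2 fold change below 0, against 47.1% of all genes, with a median of -0.20 against -0.90 for class II. Of these, 2 were lower at an unadjusted p under 0.05, against 5.74% of all genes. In 0 of them did the groups lack overlap, against 1.97% of all genes below and 1.92% above. Without H the class I median was -0.16 and 0 were lower at an unadjusted p under 0.05, against 4.28%. H2-K1 and H2-D1, the classical class I chains, were at -0.06 and -0.07 (limma adjusted p = 0.899 and 0.817), and Nlrc5, the class I counterpart of Ciita, was at -0.23 (limma adjusted p = 0.454). The gap between the 2 pathways was not tested.

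**Figure D4:**
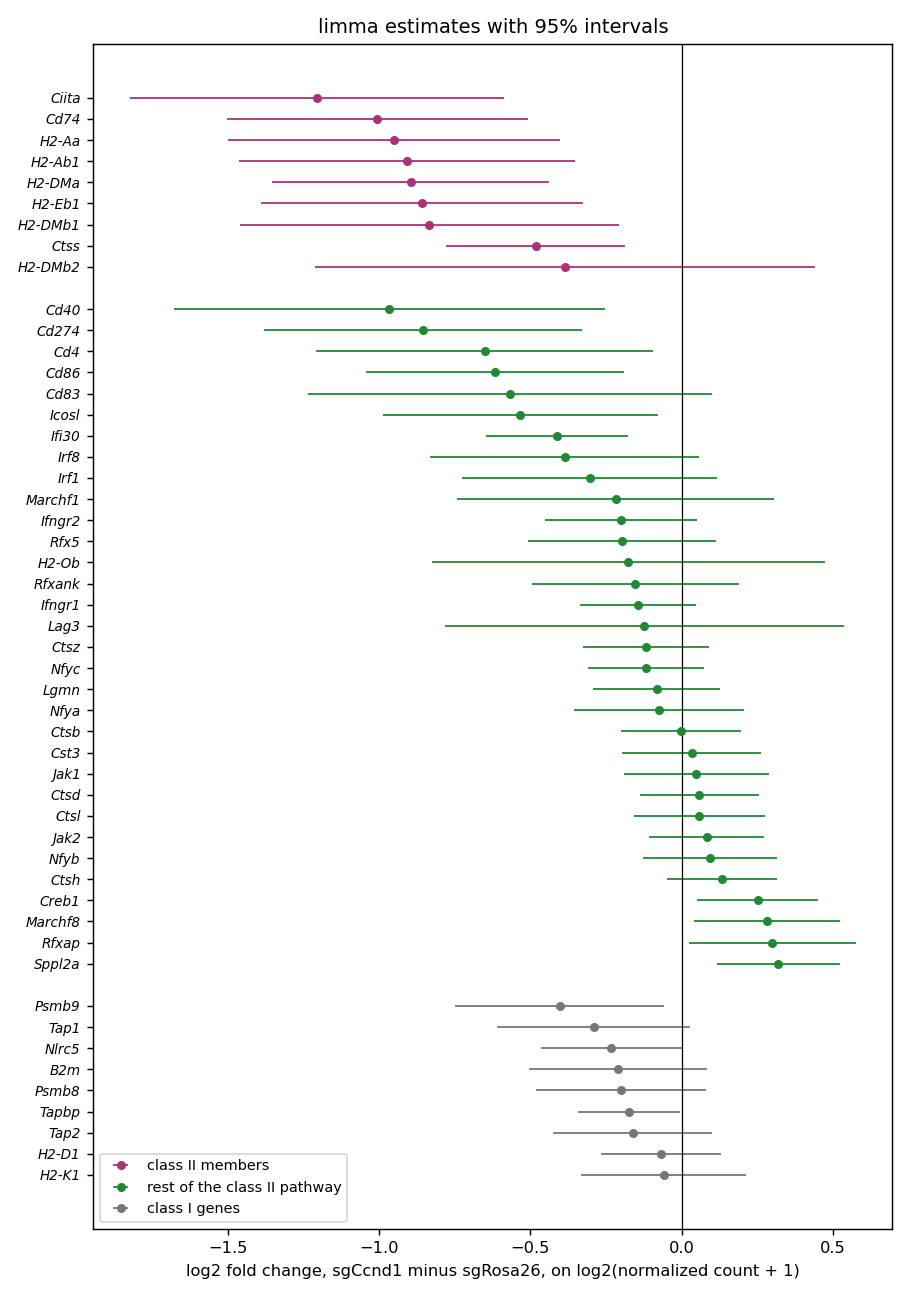
limma log2 fold changes (sgCcnd1 minus sgRosa26; points) with 95% intervals (bars) for the 9 class II genes, the 32 further pathway genes tested and 9 class I genes, each group sorted by its estimate. The interval lies below 0 for 8 of the 9 class II genes and includes 0 for H2-DMb2.

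Markers of cells that can carry class II were measured in the same libraries. Of all genes tested, 5.74% were lower at an unadjusted limma p under 0.05, and 4.28% without H. DESeq2 called 0.585% of all genes lower, and 0.192% without H. Pan-leukocyte markers summed to 611 to 891 normalized counts in sgCcnd1 and to 914 to 1213 in sgRosa26, without overlap also when Laptm5, the most abundant, was left out, and all 5 had an unadjusted p under 0.05. DESeq2 called 2 of them, Laptm5 and Cd52, and 0 without H, where limma again had all 5 at an unadjusted p under 0.05. Laptm5 had a log2 fold change of -0.56, Cd52 of -0.80 and Ptprc, which encodes CD45, of -0.43 (limma adjusted p = 0.227, 0.253 and 0.338). Markers of monocytes and recruited macrophages summed to 796 to 935 against 1075 to 1327, but Lyz2 made up 79.7% of the control sum. Without Lyz2 the rest summed to 109 to 198 against 178 to 321, with E level with control D and F above it, so the groups overlapped. Lyz2 was at -0.44 and Ccr2 at -0.86 (limma adjusted p = 0.225 and 0.292). DESeq2 called 2 of the 7 tested, Lyz2 (adjusted p = 0.00203) and Gpnmb (adjusted p = 0.0265), and 1 without H. It gave Trem2 no adjusted p in the fit to all libraries. The part of either cell population in the class II difference was not tested.

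Marker sums of the other carriers overlapped between groups too. Dendritic cell markers summed to 161 to 239 normalized counts in sgCcnd1 and 237 to 303 in sgRosa26, with Itgax at a log2 fold change of -0.78 and Ccr7 at -1.10 (limma adjusted p = 0.417 and 0.461). Without H they were at -0.50 and -0.99. Of 6 tested, 1 was lower at an unadjusted p under 0.05, against 5.74% of all genes, and the median was -0.46. Without H the count was 0, against 4.28%, and the median -0.38. B cell and plasma cell markers summed to 1025 to 3139 against 1315 to 3004, of which Ighm made up 77.0% in controls. All 10 tested were below 0, against 47.1% of all genes, and 9 of 10 without H. Fcmr (-1.21) and Mzb1 (-0.87) were the 2 with an unadjusted p under 0.05 (limma adjusted p = 0.266 and 0.354), against 5.74% of all genes. Kupffer cell markers summed to 2804 to 3463 against 2889 to 4114, with a median log2 fold change of -0.06 over 10 genes, and -0.22 without H. C1qa was at -0.35 and C1qc at -0.29 (limma adjusted p = 0.326 and 0.344), the 2 with the smallest p, while Clec4f was at -0.06 and Marco at 0.11. Without H both turned direction, to 0.02 and -0.46. Sinusoidal endothelial markers summed to 3282 to 4809 against 3149 to 4479.8, with a median of -0.07 over 9 genes, and -0.01 without H. Stab1 was at -0.23 and Lyve1 at -0.38 (limma adjusted p = 0.503 and 0.584), the 2 with the smallest p, while Stab2 was at 0.02 and Kdr at 0.09 (0.06 and 0.14 without H). No marker of these lists was at 0 in all libraries.

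Marker lists were also compared with the class II sum library by library. As a share of the sgRosa26 mean, the 9 genes summed to 83.3%, 61.3%, 50.1%, 31.5% and 54.7% in E to I, and to 84.2% to 125% in the controls. Pan-leukocyte markers were at 88.9% in E and at 61.0% to 66.5% in F to I, with H the highest of those 4. Dendritic cell markers had the same extremes among the sgCcnd1 libraries as class II, at 92.6% in E and 62.2% in H. So had T and NK cell markers, at 105.7% in E and 20.6% in H. Sinusoidal endothelial markers, at 121.3% in E and 82.8% in H, and cholangiocyte markers, at 88.8% and 57.1%, shared these extremes as well. B cell and plasma cell markers were at 169.8% in E and 162.6% in B, the highest of the 9 libraries, and at 55.4% to 93.1% in F to I. Without Ighm the rest summed to 534 normalized counts in E and 571 in B. It summed to 217 to 378 in F to I and to 345 to 397 in A, C and D. Hepatocyte markers, which define the labelled tissue, were at 85.2% to 110.0% in all 9 libraries.

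**Figure D5:**
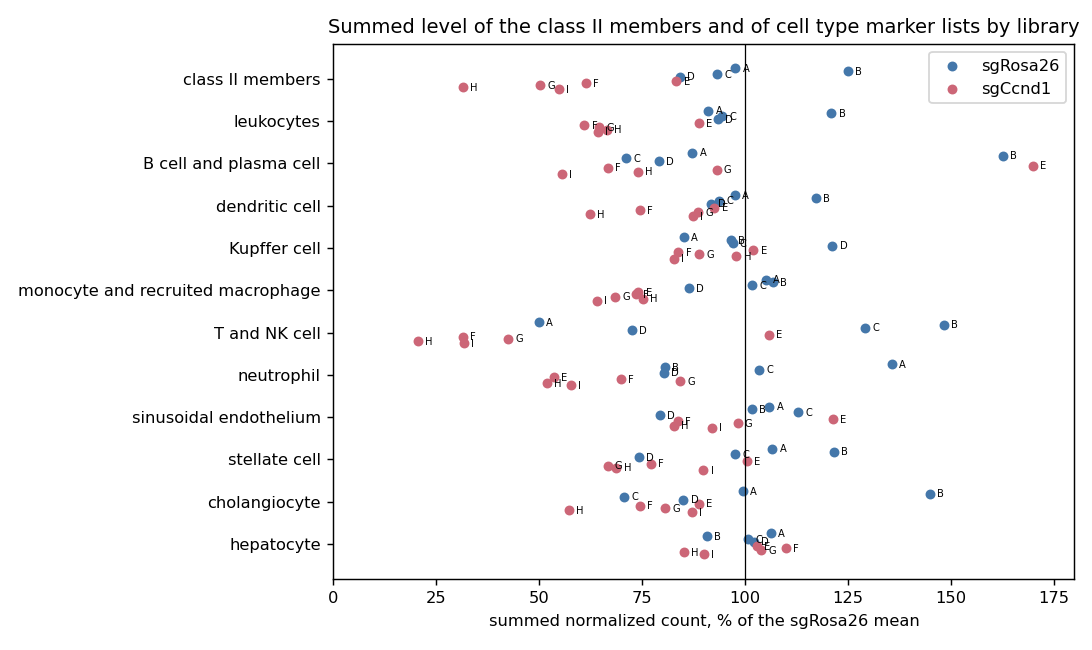
Summed normalized counts of the 9 class II genes and of each marker list in each library (points, with library letters), as a percentage of the sgRosa26 mean (line at 100). Class II sums run from 31.5% in H to 83.3% in E among the sgCcnd1 libraries, while their pan-leukocyte sums run from 61.0% in F to 88.9% in E.

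The genes outside the list whose levels were most like its mean were sought among the 10404 genes that averaged 50 normalized counts or more. The measure was Pearson's correlation over the 9 libraries after each group mean was subtracted. The 5 highest were Vcam1 (0.98), Cxcl11 (0.96), Gimap4 (0.95), Ptdss2 (0.95) and Peg10 (0.95). Between groups these genes differed from one another: Vcam1 had a log2 fold change of -0.43, Ptdss2 of -0.01 and Peg10 of 0.54 (limma adjusted p = 0.437, 0.982 and 0.337). The correlations rest on the same libraries and carry no test.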

How the data were processed

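The authors deposited 1 table of normalized counts per gene (a signal on the scale of read counts divided by a size factor per library). Per the submitters' processing notes, which give no role or order, the builds were mm10 and GRCm38 and the tools Trim Galore 0.6.7, HISAT2 2.2.1, featureCounts 2.0.3, FastQC 0.74, MultiQC and DESeq2 2.11.40.8. Whole reads were recovered for 100.0% of values (within 0.01 reads), giving 10840595 to 20176201 reads per library. All columns matched a group, and none its replicate number. The labels do not say how the samples were prepared in batches, and p-values measure the spread between these samples.

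limma 3.58.1 (R 4.3.3; trended empirical Bayes) was fitted to log2(normalized count + 1) of the 12993 genes that averaged 10 or more, with Benjamini-Hochberg adjustment and a threshold of 0.05. It was tested on simulated data. edgeR 4.0.16 and DESeq2 1.42.0 were run on the recovered reads. Lengths and overlaps came from GENCODE vM21, promoters from RefSeq. Figures were drawn with matplotlib 3.10.9. One gene of the pathway list is not reported here and is left out of that list's counts. The members and lists were chosen with earlier results of these data known. Besides the 9 members, the text names the up to 3 genes of each pathway list and up to 2 of each marker list with the smallest p, the 5 genes most like the members, Ccnd1 and Ptprc. Brd2, Dexi and the class I genes were named for comparison, and H2-Oa, H2-Eb2, Ifng, Cd80, Clec4f, Marco, Stab2, Kdr, Gpnmb and Trem2 after their values were seen. H2-Ea, Ighm, Ddx3y and Xist are named too, outside these rules.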

Additional observations from a re-analysis of the deposited data

Results flagged for a closer look

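Of 56 groups of values examined, 4 held a library far from the others of its group, where chance gives about 2.8. Ctss was at 749 normalized counts in control B and at 571 to 590.4 in the other controls. The pan-leukocyte marker sum was 1213 in control B against 914 to 947 in the other controls. The same sum was 891 in library E of sgCcnd1 against 611 to 667 in the other 4. The T and NK cell marker sum was 189.8 in library E against 37.0 to 76.4 in the other sgCcnd1 libraries.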

How the results depend on the processing

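No paired analysis was possible because no replicate number stands in the table's column names. Over 21 alternatives, 185 values of the 9 genes kept a log2 fold change below 0, and 177 also stayed on the same side of the threshold. For 2, both H2-DMb2 with DESeq2, there was no adjusted p. The other 6 passed the threshold, all with DESeq2, which called 4 of the 9 genes and, in a fit without library H added after seeing the data, 2. In the pathway list DESeq2 called 0 genes, with and without H. limma and edgeR called 0 of the 9 under the other alternatives, with 8 at an unadjusted p under 0.05, except 7 without control B and 5 of 5 tested at a minimum mean of 100. The share of all genes at that unadjusted threshold was counted only for limma, in the main fit and without H. With each library left out in turn, the called counts stayed at 0 for the 9 genes and for the pathway list, and the median log2 fold change of the 9 ran from -1.04 without E to -0.67 without H. Lists without H were also added after seeing the data: T and NK cell markers went from 5 of 6 to 1 of 6 at an unadjusted p under 0.05, with all 6 again below 0 and a median log2 fold change of -1.10 against -1.43. Stellate cell markers went from 3 of 8 to 2 of 8, with medians of -0.27 and -0.23. Of all genes, 5.74% were lower at that threshold, and 4.28% without H. H2-DMb2, with 5 to 24 reads per library, ranged from -0.67 to -0.10.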

Other observations

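Markers of cells not known as main carriers of class II were measured too. T and NK cell markers summed to 46.4% of the control mean in sgCcnd1. Of 6 tested, 5 had an unadjusted limma p under 0.05 on the lower side, against 5.74% of all genes. Both limma and DESeq2 called 0, but DESeq2 gave most of the 6 no adjusted p. Without H the T and NK cell markers summed to 52.8%, with all 6 again below 0. Then 1 of 6 was at an unadjusted p under 0.05, against 4.28% of all genes. Neutrophil markers summed to 63.5%, stellate cell markers to 80.6% and cholangiocyte markers to 77.6%, with 1 of 3, 3 of 8 and 1 of 5 tested lower at an unadjusted p under 0.05, and 1, 2 and 1 without H. In each of these lists the groups overlapped in their sums.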
